A study of Mus musculus with 8 samples.

Results

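The genes described here are 4 tissue inhibitors of metalloproteinases (*Timp1*, *Timp2*, *Timp3* and *Timp4*) and 6 metalloproteinases, of which 4 are matrix metalloproteinases (*Mmp2*, *Mmp11*, *Mmp14* and *Mmp15*) and 2 belong to the ADAM family (*Adam19* and *Adam33*). They are 10 of the 49315 genes in each count table and were found there by matching the gene symbol to its mouse Ensembl identifier. They were selected on the difference in level between wild-type and Tbx20EH1Mut libraries in this same experiment, so their genotype values are given as a description, and where their calls are counted nothing is read from the count. RNA-seq was carried out on entire mouse embryonic hearts at day 9.5 (E9.5) to examine what the interaction of the transcription factor Tbx20 with TLE corepressors contributes to heart development. The 4 control libraries came from wild-type embryos. The other 4 came from embryos homozygous for Tbx20EH1Mut, a substitution of 2 amino acids in the engrailed homology domain of Tbx20 that was introduced by CRISPR/Cas9 and crossed to C57BL/6J. Each library was made from 3 pooled hearts, and the mutation is in the germline, so every cell of the heart carries it.

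Metalloproteinases are zinc-dependent enzymes that cut proteins of the extracellular matrix and of the cell surface. Most are made as inactive precursors that proprotein convertases such as furin, or other proteases, activate, and TIMP proteins bind the active site and block it. In the embryonic heart the matrix between myocardium and endocardium, the cardiac jelly, is built and broken down while the heart tube loops and the cushions form, and the balance of proteases and inhibitors is one of the routes by which matrix turnover is set.

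Between 33359322 and 49523086 reads were counted on genes in the wild-type libraries, and the Tbx20EH1Mut libraries had 36250675 to 38357025. Levels are given as CPM, a gene's count scaled to a fixed library size after TMM scaling, and levels of different genes are compared as CPM per kb of exon. *Tbx20* itself averaged 368 ± 11.1 CPM over wild-type hearts and 267 ± 44.9 CPM over Tbx20EH1Mut hearts (SD, n = 4 libraries each), and the substituted codons cannot be seen in gene counts. Cardiomyocyte markers summed to between 13181 and 20254 CPM in wild-type and between 15159 and 25443 CPM in Tbx20EH1Mut libraries, so the defining markers of the labelled tissue were present. Markers of foregut epithelium summed to 58.1 to 108 CPM in wild-type and 219 to 388 CPM in Tbx20EH1Mut libraries (4 of 6 called higher), and erythroid markers to 1758 to 4596 and 319 to 1025 CPM (6 of 6 called lower). Most of the foregut sum was *Krt18*, at 57.2 to 78.1 CPM in wild-type and 195 to 258 CPM in Tbx20EH1Mut libraries. Of the 6 foregut markers 2, *Krt18* and *Shh*, had no overlap between genotypes, and the others overlapped. No foregut or erythroid marker was at 0 in all libraries, and the part of either cell type in the results below was not tested except where a value is given. In bulk hearts fewer cells of a type and less RNA per cell cannot be told apart.

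Wild-type replicates 1 and 2 stood apart from replicates 3 and 4 in opposite directions with gene length. Relative to the wild-type mean, the median log2 level of the 2907 genes with under 1500 exon bases was 0.34 higher in replicate 1 and -0.34 in replicate 2, and over the 2201 genes above 8000 exon bases these values were -0.13 and 0.27. Wild-type replicate 1 also had more RNA of proepicardium markers, 174 CPM in sum against 54.1, 71.8 and 81.4 CPM in replicates 2 to 4. Cushion mesenchyme markers summed to 234 CPM in it, against 193, 187 and 191 CPM. Most of that excess was *Sox9*, at 69.7 CPM against 22.0, 21.1 and 27.0 CPM. *Twist1*, *Postn* and *Snai2* were also highest in wild-type replicate 1 among wild-type libraries, and *Prrx1* and *Prrx2* were lowest in it. Whether these markers bear on the members was not tested. Among the 10 members, wild-type replicate 1 or 2 held the highest level in 9 and the lowest in 9. Values without these libraries are given for the members they moved most.

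Sequence upstream of the start site is shown for *Timp4*, the inhibitor with the largest difference between genotypes, for *Mmp15*, the protease with the highest wild-type level per kb, and for *Adam19*, the only member with a match to either motif searched. The windows are the 250 bases before a RefSeq start site on GRCm38.p6, printed 5′ to 3′ on the strand of the gene, and 8 of the 10 members had an entry. The T-box half-site searched was GGTGTGA and the AP-1 site was TGANTCA, each on both strands, and they do not overlap in the windows printed. Capitals mark a match.
Timp4 (chr6:115252206-115252455, minus strand): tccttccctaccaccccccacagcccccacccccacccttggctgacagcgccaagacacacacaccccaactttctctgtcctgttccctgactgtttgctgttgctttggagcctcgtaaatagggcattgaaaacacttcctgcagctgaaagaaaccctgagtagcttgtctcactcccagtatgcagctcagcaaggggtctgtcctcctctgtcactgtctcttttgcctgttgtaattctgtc
Mmp15 (chr8:95352046-95352295, plus strand): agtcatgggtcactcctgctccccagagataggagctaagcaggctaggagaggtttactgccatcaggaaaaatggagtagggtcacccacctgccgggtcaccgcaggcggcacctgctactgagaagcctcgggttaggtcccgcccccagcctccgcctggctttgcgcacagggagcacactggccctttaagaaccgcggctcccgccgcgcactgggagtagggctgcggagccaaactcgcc
Adam19, upstream window (chr11:46054252-46054501, plus strand): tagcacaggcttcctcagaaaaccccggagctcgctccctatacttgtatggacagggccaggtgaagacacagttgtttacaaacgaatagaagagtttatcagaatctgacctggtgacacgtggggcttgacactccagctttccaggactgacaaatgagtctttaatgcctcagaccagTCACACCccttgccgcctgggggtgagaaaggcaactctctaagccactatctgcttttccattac
Adam19, second window (chr11:46055734-46055983, plus strand): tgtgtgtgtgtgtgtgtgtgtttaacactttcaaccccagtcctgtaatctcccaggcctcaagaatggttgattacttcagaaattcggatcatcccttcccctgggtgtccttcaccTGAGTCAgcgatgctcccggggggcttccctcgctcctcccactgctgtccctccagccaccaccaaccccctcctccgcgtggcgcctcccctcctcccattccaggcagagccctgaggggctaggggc

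The T-box half-site was present in 1084 of 32536 such windows (3.33%) and in 1 of the 10 windows of members, as TCACACC from 66 to 60 bases upstream of an *Adam19* start site. The AP-1 site was present in 2189 windows (6.73%) and in 1 window of members, as TGAGTCA from 131 to 125 bases upstream of another *Adam19* start site. The *Timp4* and *Mmp15* windows held neither. The base composition of these windows differed, with 53.6% G and C and 2 CpG dinucleotides in the *Timp4* window against 63.6% and 14 in the *Mmp15* window.

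In wild-type hearts the membrane-anchored proteases *Mmp15* and *Mmp14* had the highest levels per kb, and *Timp4* had the lowest (the plot of levels by library shows CPM). *Mmp15* reached 37.0 ± 11.5 and *Mmp14* 31.1 ± 4.05 CPM per kb (SD, n = 4), and their libraries overlapped. All 4 libraries of either gene lay above those of the next group, made up of *Timp2*, *Timp1*, *Adam19* and *Mmp2*, whose means ran from 14.9 down to 13.1 CPM per kb with overlap between neighbours. *Mmp11* at 3.07, *Adam33* at 1.94 and *Timp3* at 1.66 CPM per kb formed a lower group in which neighbours also overlapped. *Timp4* stood apart at 0.0494 ± 0.0248 CPM per kb.

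In Tbx20EH1Mut hearts several places in the order changed. *Mmp14* stood alone at 35.4 ± 6.57 CPM per kb, and *Mmp15* at 16.7 ± 0.830 CPM per kb now overlapped *Timp2* at 15.3 ± 1.41 CPM per kb. *Mmp2* and *Adam19*, which overlapped in both genotypes, changed places. *Timp4* at 1.87 ± 0.693 CPM per kb overlapped *Timp3* at 1.06 ± 0.236 CPM per kb, and *Adam33* took the lowest place at 0.309 ± 0.131 CPM per kb.

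**Figure D1:**
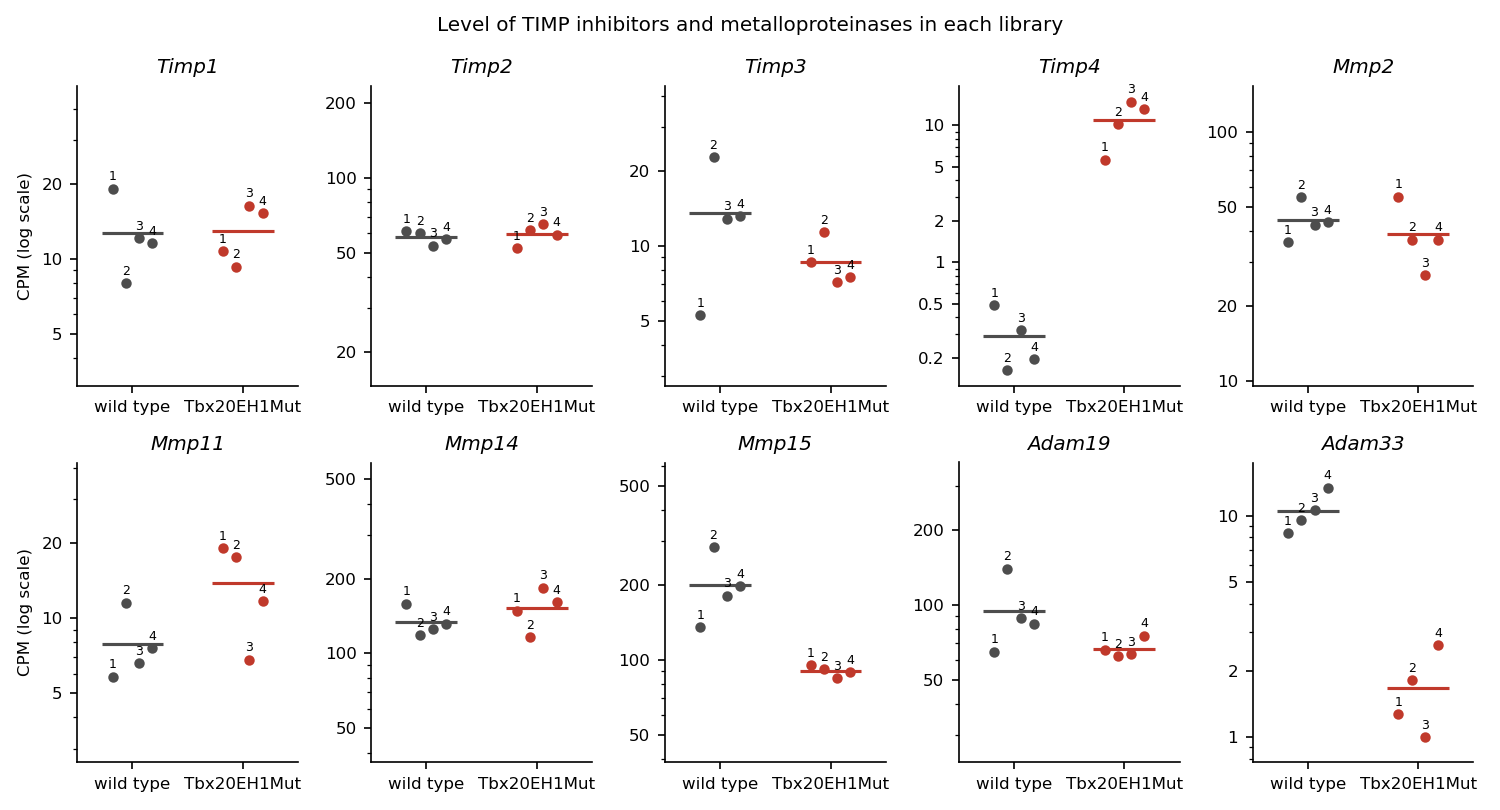
CPM of each member (log axis, 1 panel per gene) in the 4 wild-type libraries (grey) and the 4 Tbx20EH1Mut libraries (red), with the replicate number above each point and a line at the mean. Axes span different ranges; the genotypes are separated in *Timp4*, *Mmp15* and *Adam33* and overlap in the other 7 genes.

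*Timp4*, an inhibitor best known from the adult heart, was close to absent in wild-type hearts and present in all Tbx20EH1Mut hearts. Its counts were 16, 8, 16 and 9 in wild-type replicates 1 to 4 and 217, 384, 478 and 499 in Tbx20EH1Mut replicates 1 to 4. As CPM these were 0.486, 0.163, 0.319 and 0.196 against 5.62, 10.2, 14.9 and 13.2. The lowest Tbx20EH1Mut library was 11.6-fold above the highest wild-type library. The means were 0.291 ± 0.146 and 11.0 ± 4.09 CPM, a ratio of 37.8 and a log2 fold change of 5.27 (SE 0.427). With so few wild-type counts the size of the ratio is less certain than its direction, and it ran from 5.07 to 5.58 on the log2 scale when 1 library was left out.

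The other inhibitors were not separated by genotype. *Timp2*, which also takes part in the activation of pro-MMP2 by MMP14, was the most even member among the wild-type libraries, with 61.3, 60.0, 53.4 and 56.8 CPM there, against 52.4, 61.7, 65.4 and 59.2 CPM in Tbx20EH1Mut replicates 1 to 4. Its coefficient of variation was 6.09% in wild-type and 9.20% in Tbx20EH1Mut hearts, and its log2 fold change was 0.04 (SE 0.104). *Timp1*, a secreted inhibitor of most matrix metalloproteinases, gave 19.1, 7.98, 12.1 and 11.5 CPM against 10.7, 9.32, 16.3 and 15.2 CPM. Wild-type replicate 1 was the highest of all 8 libraries and replicate 2 the lowest, and the log2 fold change was 0.03 (SE 0.272), 0.29 without wild-type replicate 1 and -0.14 without wild-type replicate 2.

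*Timp3*, the inhibitor that stays bound to the matrix and also inhibits ADAM proteases, varied most among wild-type libraries. Its levels were 5.28, 22.7, 12.9 and 13.1 CPM in wild-type and 8.62, 11.4, 7.13 and 7.47 CPM in Tbx20EH1Mut replicates 1 to 4. Wild-type replicates 2, 3 and 4 lay above every Tbx20EH1Mut library, and replicate 1 lay below all of them. The log2 fold change was -0.64 (SE 0.358), -0.91 without wild-type replicate 1 and -0.26 without wild-type replicate 2.

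*Mmp15*, a membrane-type protease also called MT2-MMP, was lower in every Tbx20EH1Mut library. Wild-type replicates 1 to 4 had 135, 284, 181 and 198 CPM, and the Tbx20EH1Mut replicates had 95.2, 92.0, 84.6 and 89.2 CPM. The wild-type libraries were spread over a 2.10-fold range and the Tbx20EH1Mut libraries over a 1.12-fold range. The lowest wild-type library was 1.42-fold above the highest Tbx20EH1Mut library. The means were 199.6 ± 62.1 and 90.2 ± 4.48 CPM, a log2 fold change of -1.15 (SE 0.195) that lay between -1.30 and -0.91 when 1 library was left out and at -1.07 without wild-type replicates 1 and 2.

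*Adam33*, a membrane-anchored ADAM protease, showed the largest drop among the proteases. Its counts were 276, 471, 532 and 614 in wild-type and 49, 68, 32 and 98 in Tbx20EH1Mut replicates 1 to 4, or 8.38, 9.59, 10.6 and 13.4 CPM against 1.27, 1.81, 1.0 and 2.60 CPM. The lowest wild-type library was 3.22-fold above the highest Tbx20EH1Mut library. The ratio of the means, 10.5 ± 2.14 and 1.67 ± 0.704 CPM, was 0.159, and the log2 fold change was -2.65 (SE 0.302).

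*Adam19*, which is required for heart valve and septum formation in the mouse, was lower on average but overlapped between genotypes. It gave 64.9, 139.6, 88.5 and 83.8 CPM in wild-type and 66.0, 62.0, 63.4 and 75.1 CPM in Tbx20EH1Mut replicates 1 to 4. Wild-type replicate 1 lay among the Tbx20EH1Mut libraries, and the other wild-type libraries lay above all of them. The log2 fold change was -0.50 (SE 0.205), and it was -0.65 without wild-type replicate 1, -0.24 without wild-type replicate 2 and -0.37 without both.

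*Mmp14* (MT1-MMP), which activates pro-MMP2 at the cell surface, and *Mmp2*, a gelatinase, overlapped between the genotypes. *Mmp14* gave 158, 119, 125 and 132 CPM in wild-type against 148, 116, 184 and 160.4 CPM in Tbx20EH1Mut replicates 1 to 4, a log2 fold change of 0.19 (SE 0.153). *Mmp2* was at 36.1, 54.6, 42.4 and 43.4 CPM against 54.9, 36.9, 26.5 and 36.9 CPM, a log2 fold change of -0.18 (SE 0.209). This value was -0.39 without Tbx20EH1Mut replicate 1, -0.05 without wild-type replicate 2 and -0.03 without Tbx20EH1Mut replicate 3. For both *Mmp2* and *Mmp14*, the wild-type range lay inside the Tbx20EH1Mut range.

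*Mmp11* (stromelysin 3), which is activated inside the cell by furin, was the protease with the higher average in Tbx20EH1Mut hearts by the largest ratio, 1.75. It gave 5.83, 11.6, 6.59 and 7.57 CPM in wild-type and 19.1, 17.6, 6.81 and 11.7 CPM in Tbx20EH1Mut replicates 1 to 4. The log2 fold change was 0.81 (SE 0.324), 1.06 without wild-type replicate 2 and 0.62 without Tbx20EH1Mut replicate 1. Tbx20EH1Mut replicate 3 lay inside the wild-type range. The foregut marker *Epcam* gave 1.64, 15.3, 0.657 and 3.03 CPM in the same wild-type libraries and 75.4, 67.2, 10.7 and 27.5 CPM in the Tbx20EH1Mut libraries, with the same order of Tbx20EH1Mut replicates as *Mmp11*. Of the 6 foregut markers 3 (*Epcam*, *Cdh1* and *Foxa2*) had that order and *Shh*, *Krt18* and *Nkx2-1* did not, and 5 were, like *Mmp11*, highest among wild-type libraries in replicate 2. *Mmp2* and *Mmp15* had both the same order over the Tbx20EH1Mut replicates and their highest wild-type level in replicate 2, and neither was higher on average in Tbx20EH1Mut hearts. For *Mmp2*, Tbx20EH1Mut replicates 2 and 4 were level (36.94 and 36.92 CPM), so its order between them carries no information. With the level of the foregut markers as a covariate the log2 fold change of *Mmp11* was -0.28.

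At an adjusted p below 0.05 and an absolute log2 fold change above 0.5 (quasi-likelihood test of edgeR, adjusted by Benjamini-Hochberg over 17163 genes), 12.5% of all genes tested were called higher and 12.1% lower in Tbx20EH1Mut hearts. All 10 members passed the filter on low counts, *Timp4* through its Tbx20EH1Mut libraries. Of the 10, *Timp4* was called higher, and *Mmp15* and *Adam33* were called lower. *Mmp11* was also called higher by DESeq2, without wild-type replicate 2 and without Tbx20EH1Mut replicate 3, and *Timp3* and *Adam19* were called lower with the foregut covariate and without wild-type replicate 1. *Timp4*, *Mmp15* and *Adam33* had no overlap between genotypes, where 14.7% of all genes tested lay without overlap higher and 15.7% lower. Because the members were chosen with this contrast known, nothing is read from these counts. The median log2 fold change was 0.035 over the 4 inhibitors and -0.34 over the 6 proteases, beside 0.00477 over all genes tested.

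**Figure D2:**
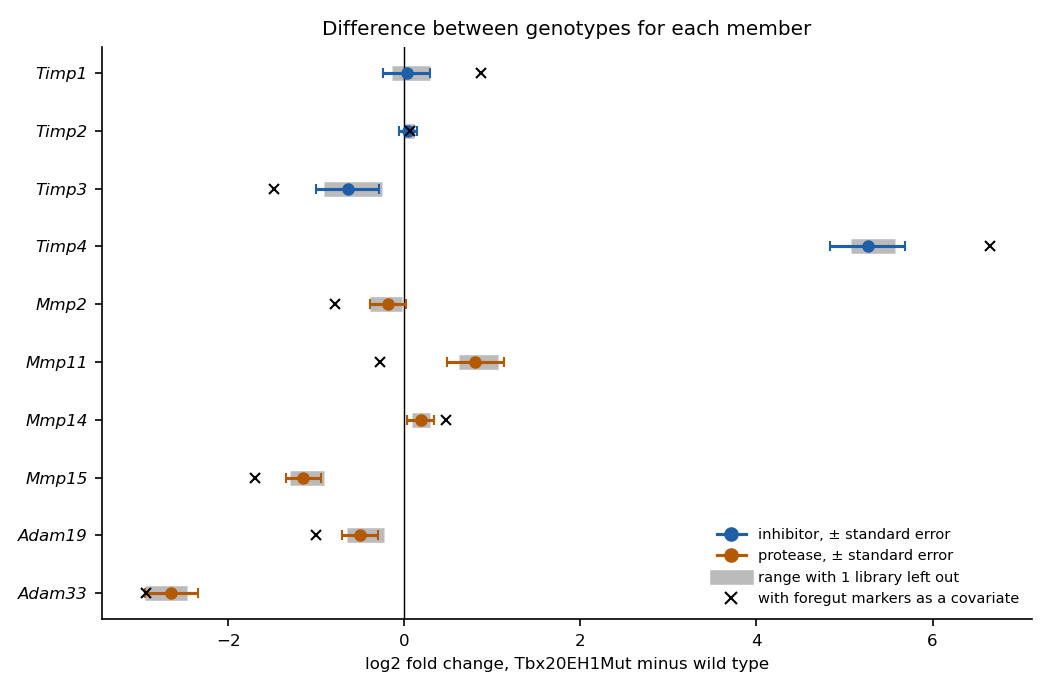
Log2 fold change (Tbx20EH1Mut minus wild type) of each member with its standard error, inhibitors in blue and proteases in orange. Grey bars span the fits with 1 library left out and crosses give the fit with foregut markers as a covariate; *Timp4* stands at 5.27, *Mmp15* at -1.15 and *Adam33* at -2.65, and the cross of *Mmp11* lies on the other side of 0 from its point.

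With the covariate *Timp4* went to 6.65, *Mmp15* to -1.69, *Adam33* to -2.93, *Timp3* to -1.48 and *Adam19* to -1.0 on the log2 scale. Among the members that differed least without it, *Timp1* went from 0.03 to 0.87, *Mmp14* from 0.19 to 0.47 and *Mmp2* from -0.18 to -0.79, and *Timp2* from 0.04 to 0.07. The 9 members other than *Mmp11* thus lay further from 0 with the covariate. The foregut markers differ between the genotypes themselves, so the covariate and the genotype share part of their variation.

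Summed over the 4 inhibitors, the level was 30.9 ± 4.86 CPM per kb in wild-type and 32.8 ± 5.16 CPM per kb in Tbx20EH1Mut hearts (SD, n = 4 libraries). Summed over the 6 proteases it was 99.4 ± 16.0 and 78.7 ± 6.02 CPM per kb. The ratio of inhibitor sum to protease sum was 0.444, 0.222, 0.314 and 0.30 in wild-type replicates 1 to 4 and 0.322, 0.416, 0.494 and 0.442 in Tbx20EH1Mut replicates 1 to 4. The means, 0.320 ± 0.0921 and 0.419 ± 0.0720, differed by a factor of 1.31, and the libraries overlapped because wild-type replicate 1 exceeded every Tbx20EH1Mut library except replicate 3. The factor was 1.5 without wild-type replicate 1 and 1.19 without wild-type replicate 2.

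Sums weigh abundant genes most, and *Timp1* and *Timp2* together made up most of the inhibitor sum in both genotypes. *Timp1* held 45.3% and *Timp2* 48.8% in wild-type hearts, and 43.9% and 47.2% in Tbx20EH1Mut hearts. *Timp4* went from 0.155% ± 0.0557 to 5.56% ± 1.42 of the sum. Among the proteases, *Mmp15* held 36.6% ± 5.63 in wild-type and 21.3% ± 1.83 in Tbx20EH1Mut hearts, and *Mmp14* 32.2% ± 8.39 and 44.9% ± 7.46. When the genes of each class were weighed equally by a geometric mean, the ratio was 0.194 ± 0.0454 in wild-type and 0.689 ± 0.197 in Tbx20EH1Mut hearts, a factor of 3.55, with no overlap. That factor came from *Timp4* and *Adam33*, the members with the largest differences, and without these 2 genes it was 1.03 (0.479 ± 0.0563 and 0.495 ± 0.0981), with overlap.

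**Figure D3:**
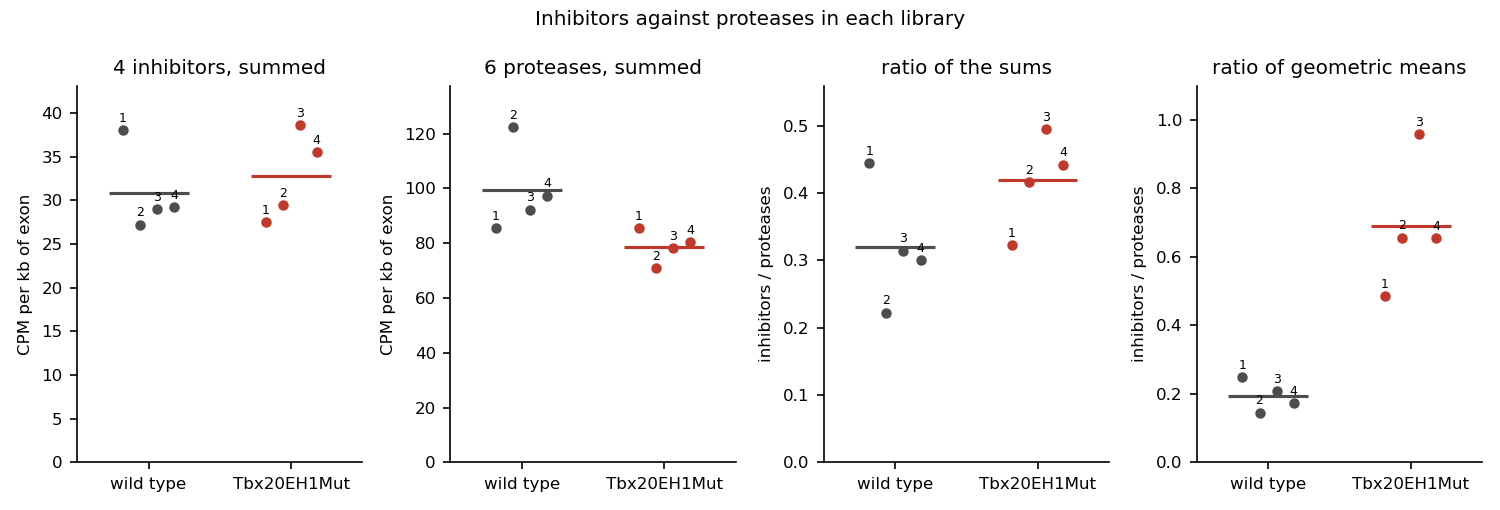
Summed level of the 4 inhibitors and of the 6 proteases (CPM per kb of exon), the ratio of these sums, and the ratio of geometric means, in each library with its replicate number and a line at the mean. The ratio of the sums overlaps between genotypes (0.222 to 0.444 and 0.322 to 0.494), and the ratio of geometric means over all 10 members does not.

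*Timp1*, *Timp3* and *Timp4* lie inside synapsin genes, on the opposite strand. *Timp4* (chr6:115241892-115252205 of GRCm38, minus strand) lies inside *Syn2* (chr6:115134902-115282006, plus strand) and shares 90 exon bases with it, 1.53% of its own. *Syn2*, which encodes a synaptic vesicle protein, was itself higher in Tbx20EH1Mut hearts. Its levels were 0.425, 0.774, 0.657 and 0.698 CPM in wild-type and 2.80, 4.57, 3.53 and 3.84 CPM in Tbx20EH1Mut replicates 1 to 4, without overlap, with a log2 fold change of 2.51 (SE 0.282, adjusted p = 3.63e-04 in the edgeR fit over all genes). It had 655 counts over the 8 libraries against 1627 for *Timp4*. Whether the counting used strand is not given in the sources used here, so reads over the shared bases could not be assigned.

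The other host genes did not pass the test. *Timp3* (chr10:86300372-86349506, plus strand) shares 1733 exon bases with *Syn3*, 21.3% of its own, but *Syn3* had only 128 counts over the 8 libraries against 3809 for *Timp3*, and its log2 fold change was 0.41 (SE 0.427). *Timp1* (chrX:20870166-20874735, plus strand) lies inside *Syn1* and shares no exon bases with it, and *Syn1* had 103 counts and a log2 fold change of 0.45 (SE 0.620). *Cep295nl*, which lies inside *Timp2*, had 84 counts over the 8 libraries and did not pass the filter.

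**Figure D4:**
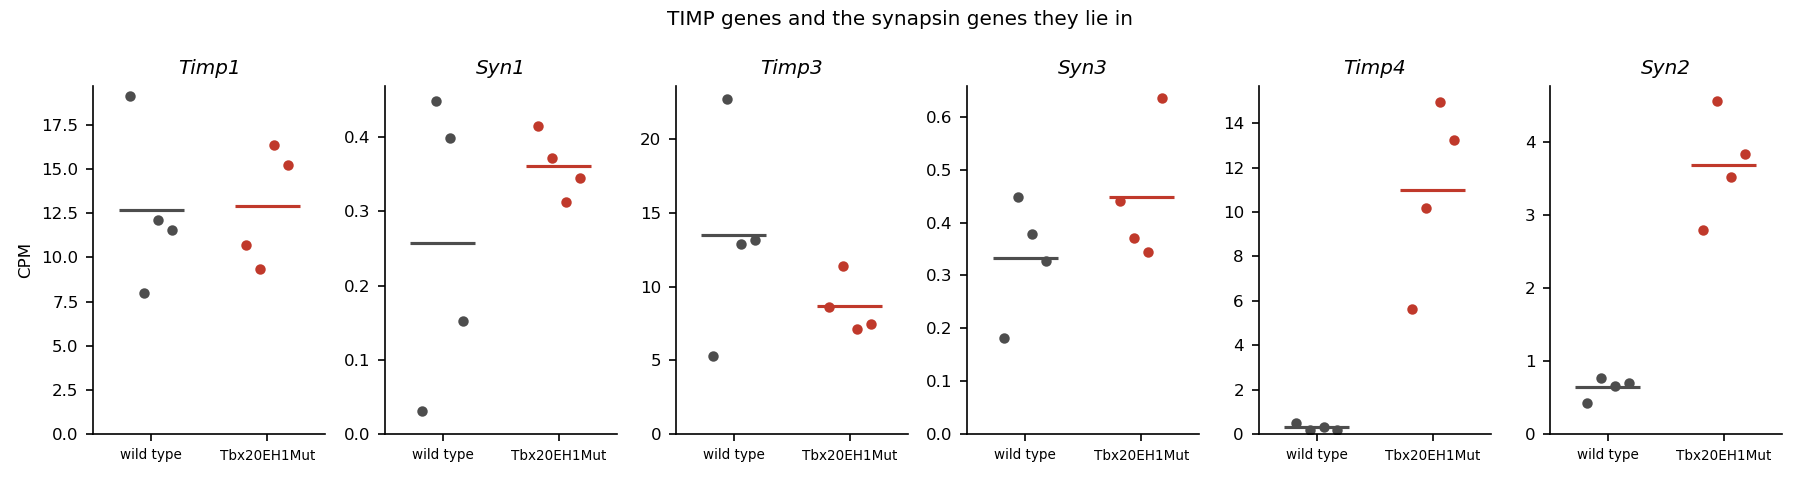
CPM (linear axis from 0, scaled per panel) of *Timp1*, *Timp3* and *Timp4*, each beside the synapsin gene it lies in, in 4 wild-type (grey) and 4 Tbx20EH1Mut (red) libraries with a line at the mean. *Timp4* and *Syn2* are both separated by genotype, and the other panels overlap.

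The remaining members lie apart from one another, though some share a chromosome. *Mmp15* (chr8:95352268-95375080, plus strand) and *Mmp2* (chr8:92827291-92853420, plus strand) are both on chromosome 8, *Timp3* and *Mmp11* (chr10:75923222-75932502, minus strand) on chromosome 10, and *Timp2* (chr11:118301069-118355740, minus strand) and *Adam19* (chr11:46055992-46147343, plus strand) on chromosome 11. *Adam33* (chr2:131050591-131063814, minus strand) and *Mmp14* (chr14:54431612-54441265, plus strand) are alone on theirs. *Adam19* shares 587 exon bases with the antisense gene *Gm16033*, which had 9 counts over the 8 libraries.

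Over the 8 libraries, the gene whose centred log2 CPM profile was nearest to that of *Timp4* among 10947 genes was *Ndufa4l2*, with a root-mean-square difference of 0.446, followed by *Cox4i2* at 0.878 and *Gm15283* at 0.879. *Ndufa4l2* went from 3.41 ± 1.18 to 116 ± 12.6 CPM and *Cox4i2* from 11.9 ± 3.27 to 128 ± 43.2 CPM. The profiles nearest to that of *Mmp15* were those of *Rgl1* at 0.0811, *Cabin1* at 0.0944 and *Slx4* at 0.101. *Rgl1* went from 54.8 ± 16.0 to 26.0 ± 2.14 CPM. These distances cover both genotypes together.

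Around the 10 members, 65 other genes were listed as proteases or inhibitors. Of these 48 were tested, 7 were called higher and 7 lower, beside the background of 12.5% and 12.1% given above. With matrix proteins and the genes that host or lie inside *Timp* genes, 84 genes were listed, 66 were tested, and 9 were called higher and 10 lower. Of 6 other genes listed as inhibitors, 3 were higher and 1 was lower (median log2 fold change 0.30). The list holds *Serpinh1*, a collagen chaperone of the serpin family that does not inhibit proteases and was not called, and the median of the other 5 was 0.83. *A2m*, a broad protease inhibitor of plasma, went from 1.63 ± 0.310 to 13.7 ± 1.33 CPM (3.07 on the log2 scale, with adjusted p = 1.59e-05 by edgeR). *Reck*, a membrane-anchored inhibitor of several matrix metalloproteinases, went from 19.5 ± 3.92 to 36.0 ± 4.82 CPM (0.89, adjusted p = 0.00355 by edgeR). *Cst3*, an inhibitor of cysteine proteases, went from 335 ± 78.5 to 595 ± 149 CPM (0.83, adjusted p = 0.018 by edgeR). *Serpine2* was called lower. With the foregut covariate the adjusted p was 0.139 for *Reck* and 0.435 for *Serpine2* by edgeR, and *A2m* kept its call at 0.00101. With that covariate *Cst3* was at 1.51 on the log2 scale and also kept its call (adjusted p = 0.00387 by edgeR). *Cst3* lost its call without wild-type replicate 3 or 4 or Tbx20EH1Mut replicate 4 (adjusted p up to 0.0551 by edgeR).

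Of 9 other ADAM genes tested, edgeR called 0, with 0 at an unadjusted p below 0.05, and DESeq2 called 0. Of 7 other matrix metalloproteinases tested, edgeR called *Mmp19*, from 0.343 ± 0.0903 to 0.827 ± 0.251 CPM (1.26 on the log2 scale, with adjusted p = 0.0361 by edgeR). It kept its call in 2 of 8 fits with 1 library left out (adjusted p up to 0.115 by edgeR). *Mmp28* was called lower by DESeq2 and by edgeR without wild-type replicate 1. Of 17 ADAMTS genes tested, 2 were higher and 4 lower. *Adamts3*, a procollagen peptidase, went from 2.18 ± 1.07 to 0.448 ± 0.130 CPM (-2.28, adjusted p = 0.00351 by edgeR) and *Adamts2* from 1.16 ± 0.558 to 3.41 ± 0.547 CPM (1.56, adjusted p = 0.0119 by edgeR). *Adamts6* (-1.61, adjusted p = 0.0301 by edgeR), *Adamts14* and *Adamts15* were called lower and *Adamts17* higher. *Adamts2*, *Adamts3* and *Adamts15* kept their calls whichever library was left out, and the others lost theirs in at least 4 of 8 such fits (adjusted p up to 0.092 by edgeR). With the foregut covariate *Adamts2* lost its call, at 0.68 on the log2 scale (adjusted p = 0.35 by edgeR), as did *Adamts17* at 0.42. *Mmp19* lost its call there at a log2 fold change of 1.37 (adjusted p = 0.156 by edgeR). The same covariate added lower calls for *Adam11* (-1.31), *Adam12* (-1.21), *Mmp17* (-1.76), *Mmp28* (-2.19) and 4 ADAMTS genes (*Adamts4*, *Adamts9*, *Adamts12* and *Adamts19*), and 15.9% of all genes tested were called lower with it.

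Among 9 tested genes listed as activating proteases, *Pcsk6* was higher and *Pcsk5* and *Pcsk7* were lower. All 3 are proprotein convertases, and all 3 kept their calls in all 18 alternatives. *Pcsk6* went from 16.0 ± 6.02 to 48.9 ± 5.69 CPM (1.61, adjusted p = 0.00124 by edgeR), *Pcsk5* from 15.9 ± 1.02 to 8.88 ± 1.26 CPM (-0.84, adjusted p = 0.00272 by edgeR) and *Pcsk7* from 24.7 ± 3.85 to 14.8 ± 2.16 CPM (-0.74, adjusted p = 0.00672 by edgeR). *Furin*, which cuts the precursors of MMP11 and MMP14, had a log2 fold change of -0.46, under the fold threshold, and was called lower with the foregut covariate (-0.61), without wild-type replicate 1 and with total-count scaling. Of 15 matrix proteins other than collagens, *Eln* (elastin) was called higher and the basement membrane genes *Nid2*, *Lamc1* and *Lama4* lower. *Eln* went from 3.63 ± 1.18 to 13.1 ± 3.26 CPM (1.85, adjusted p = 0.00159 by edgeR, but 0.87 with adjusted p = 0.0597 with the foregut covariate) and *Nid2* from 245 ± 82.3 to 78.9 ± 19.5 CPM (-1.63, adjusted p = 0.00223 by edgeR). *Lamc1* had a log2 fold change of -0.97 (adjusted p = 0.0199 by edgeR, and 0.0539 without Tbx20EH1Mut replicate 4). *Lama4* lost its call without wild-type replicate 2 or Tbx20EH1Mut replicate 3 or 4 (adjusted p up to 0.072 by edgeR). With the foregut covariate *Nid2*, *Lamc1* and *Lama4* kept their calls and 7 more of the 15 were called lower. These ran from *Fbn1* at -1.91, *Lama1* at -1.90, *Fn1* at -1.62 and *Hspg2* at -1.33 to *Lama5*, *Lamb2* and *Lamb1*. *Fn1* and *Fbn1* were also called lower by DESeq2, with no filter except at least 1 count, and without wild-type replicate 1. *Fn1* was called lower with the exon length trend removed as well.

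**Figure D5:**
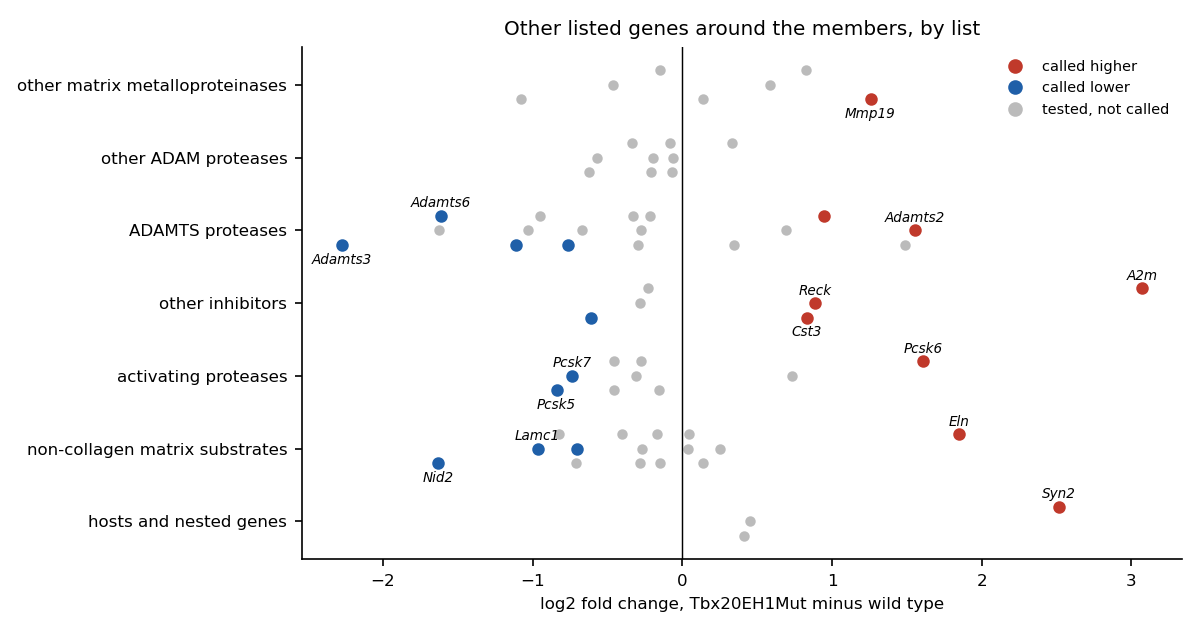
Log2 fold change (Tbx20EH1Mut minus wild type) of the 66 tested genes of 7 lists (proteases, inhibitors, matrix proteins and genes that host or lie inside *Timp* genes), 1 point per gene, red where called higher, blue where called lower and grey where not called. In each list up to 3 called genes with the largest differences are named. Of the 6 genes listed as other inhibitors 3 are red, and no gene listed under other ADAM proteases is coloured.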

How the data were processed

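Poly-A selected RNA of pooled E9.5 hearts was sequenced as 8 libraries. For each of these the authors deposited raw counts per Ensembl gene, not normalized, and the submitters' processing notes list Trimmomatic 0.36, STAR 2.5.2b and the build GRCm38 (mm10). The counting tool and its strand setting are not given in the sources used here. Of 49315 genes, 48970 matched a symbol of GENCODE M21, and 91.6% of these had its start and end. The members and lists were chosen with earlier results of these data known, and 1 gene of the lists is not reported here. No library was a copy of another within sampling noise.

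Counts were fitted in R 4.3.3 with edgeR 4.0.16 (filterByExpr, TMM, quasi-likelihood test, genotype as the only term) and adjusted by Benjamini-Hochberg over 17163 genes, and the steps were tested on simulated data. Thresholds were an adjusted p of 0.05 and an absolute log2 fold change of 0.5. Standard errors (SE) were not estimated directly. Each is the absolute log2 fold change divided by the square root of the F statistic of the quasi-likelihood test. Named genes were all members, every called gene of the lists (values for up to 3 per list with the largest change, and for others where a call was lost), the synapsin genes and *Cep295nl*, and the 3 profiles most like those of *Timp4* and *Mmp15* (mean of at least 5 CPM, prior count 2). Alternatives were RLE, upper-quartile and total-count scaling, DESeq2 1.42.0, other filters, a replicate block, a foregut covariate and leaving out each library. Leaving out wild-type replicates 1 and 2 together, removing the exon length trend, and geometric means without *Timp4* and *Adam33* were added after seeing the data. Plots used Python 3.11.15 and matplotlib 3.10.9. Total counts of 33359322 to 49523086 leave genes below 1 CPM the least precise. P-values measure the spread between pooled libraries.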

Additional observations from a re-analysis of the deposited data

How the results depend on the processing

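Of 179 log2 fold changes of members under the alternatives, 171 moved by less than the spread between libraries and 8 by more, all 8 with the foregut covariate. The members were selected on this contrast, so nothing is read from their calls, and the filter of at least 10 counts in every library dropped *Timp4*. The sign changed for *Timp1* (-0.31 with the exon length trend removed), *Timp2* and, with the covariate, *Mmp11*. With the foregut covariate 4 of the other listed genes were called higher and 26 lower of 66 tested, beside 14.5% and 15.9% of all genes. With 1 library left out these counts ran from 6 to 9 higher and from 6 (without Tbx20EH1Mut replicate 4) to 14 (without wild-type replicate 1) lower, and over all genes from 1375 (wild-type replicate 3 left out) up to 2948 (wild-type replicate 1 left out) higher and from 1376 (without Tbx20EH1Mut replicate 4) to 2719 (without wild-type replicate 1) lower. The ratio of Tbx20EH1Mut to wild-type for inhibitors over proteases was 1.19 to 1.5 with 1 library left out, 1.36 without wild-type replicates 1 and 2, 3.55 with geometric means, and 1.03 with geometric means that left out *Timp4* and *Adam33*. Members without overlap numbered 3 to 5 with 1 library left out and 5 without wild-type replicates 1 and 2, where 31.9% to 47.5% and 55.4% of all genes lay without overlap in either direction. The cause of these shifts was not tested.

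Same-numbered libraries of the genotypes correlated at -0.513, 0.452, 0.0819 and 0.128, and none correlated best with its own number. The best other values were 0.665, 0.568, 0.168 and 0.167. The main fit did not treat the numbers as pairs. Whether same-numbered pools were prepared together is not given in the sources used here. A replicate block gave 1910 genes called higher and 1771 lower, with 8 and 9 among the other listed genes. *Timp4* has the fewest reads of the members, at 8 to 16 counts per wild-type library.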
